A study of Caenorhabditis elegans with 2 samples.

Results

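The nuclear genome of Caenorhabditis elegans holds 209 genes that RefSeq annotates as tRNA pseudogenes on the WBcel235 assembly (ce11), among 46890 nuclear genes, 612 nuclear tRNA genes and 346 snoRNA genes. All 209 were described here by whether RNA polymerase III was detected at them. Chromatin immunoprecipitation and sequencing had been done on RPC-1, which is the largest of the polymerase's subunits, expressed from a transgene as a fusion with GFP and FLAG at its C terminus and precipitated with an antibody against GFP. The animals were whole young adult hermaphrodites of strain JK1107, which carries glp-1(q224) III, a temperature-sensitive allele of the Notch-family receptor that maintains germline stem cells. The promoter of the transgene, the growth temperature and the age in hours are not stated in the labels. There was 1 group of 2 samples, biological replicates 1 and 3, from separate biosamples, both with the allele and the transgene. Chromatin was sheared in a Bioruptor for replicate 1 and with a microtip for replicate 3, so shearing and replicate cannot be told apart. A pseudogene was called bound when the summit of a peak in the reproducible (IDR) list lay within 250 bp of its body. IDR, the irreproducible discovery rate, keeps peaks whose ranks repeat between replicates.

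RNA polymerase III transcribes tRNA genes from promoter elements that lie inside the transcribed sequence. The A-box and the B-box are read by the factor TFIIIC, which places TFIIIB upstream of the start so that the polymerase can load, and a run of T in the gene's sense strand ends transcription. A tRNA pseudogene is a sequence that resembles a tRNA gene but is predicted not to give a working tRNA, often because the cloverleaf fold or the anticodon arm has decayed. Such a copy can keep its internal promoter after it has lost its coding role. Nematode genomes hold tRNA-like copies both as old relics of tRNA genes and as parts of repeats.

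Of the 209 tRNA pseudogenes, 27 were bound (12.9%, 95% Clopper-Pearson interval 8.69 to 18.2%), and 182 were not. Over all nuclear genes the same rule called 5.16%, and it called 565 of 612 tRNA genes (92.3%) and 85 of 346 snoRNA genes (24.6%). A summit lay inside the gene body for 18 of the 209 (8.61%), against 3.3% of all nuclear genes, and thus for 18 of the 27 bound pseudogenes and 462 of the 565 bound tRNA genes (81.8%). The intervals cover counting only. Genes are not replicates, neighbouring genes share peaks, all nuclear genes were not matched to the pseudogenes for length, and no test over genes was made.

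The bound pseudogenes fell into 4 settings. In 3 the pseudogene overlapped a snoRNA gene, and in 1 the peak lay closest to a bound tRNA gene next door. Of the other 23, with no tRNA or snoRNA gene within 500 bp, 16 had a summit inside the pseudogene and 7 had the nearest summit outside it, at 7 to 234 bp. At 5 of these 23 another RNA gene lay within 250 bp of the nearest summit, namely ncRNA genes at W01H2.t1, F46F2.t1 and Y106G6D.t1, and at C25F9.t1 and C25F9.t2 the other of the pair. The printed sequences carry the main contrasts, namely pseudogenes joined to a snoRNA gene, strong pseudogenes far from such genes, near copies of tRNA genes, and copies of which 1 was bound. They are from the RefSeq WBcel235 assembly, written 5′ to 3′ on the strand of the gene, with the best match to the B-box core GTTCGANTC in capitals.

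The first set holds pseudogenes that run into a snoRNA gene. D1046.t1 (chrIV:8927200-8927273, plus strand) and F19H8.t1 (chrII:14617081-14617150, plus strand) were bound and Y59E1B.t1 (chrX:1891446-1891517, plus strand) was not.
D1046.t1: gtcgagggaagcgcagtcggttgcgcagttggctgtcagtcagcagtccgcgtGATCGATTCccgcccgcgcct
F19H8.t1: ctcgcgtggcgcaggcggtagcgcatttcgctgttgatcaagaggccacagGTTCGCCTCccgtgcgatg
Y59E1B.t1: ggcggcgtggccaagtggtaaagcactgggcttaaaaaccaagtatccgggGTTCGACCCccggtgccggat

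The second set holds the 3 strongest bound pseudogenes outside protein-coding genes, Y69A2AR.t3 (chrIV:2664242-2664314, plus strand), Y22D7AR.t1 (chrIII:1743249-1743320, minus strand) and Y94H6A.t1 (chrIV:2740214-2740286, plus strand).
Y69A2AR.t3: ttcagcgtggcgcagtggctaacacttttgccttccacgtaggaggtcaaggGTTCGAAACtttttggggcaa
Y22D7AR.t1: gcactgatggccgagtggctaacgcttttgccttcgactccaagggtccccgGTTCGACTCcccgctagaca
Y94H6A.t1: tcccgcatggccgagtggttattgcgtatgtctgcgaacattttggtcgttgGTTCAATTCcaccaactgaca

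The third set pairs near copies with a tRNA gene. C52E12.t1 (chrII:7001627-7001698, plus strand) is set against the alanine tRNA gene B0491.t1 (chrII:11334508-11334579, plus strand), F46F2.t1 (chrX:15248973-15249043, plus strand) against the threonine tRNA gene C24H11.t1 (chrIII:11792782-11792853, plus strand), and C08E8.t2 (chrV:18371229-18371301, plus strand) against C08E8.t3 (chrV:18372881-18372953, minus strand), a tRNA gene of undetermined isotype. The unbound T13B5.t1 (chrII:1102053-1102124, minus strand) is set against the threonine tRNA gene T13B5.t2 (chrII:1102360-1102432, minus strand).
C52E12.t1: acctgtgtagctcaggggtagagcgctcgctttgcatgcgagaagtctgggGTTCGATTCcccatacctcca
B0491.t1: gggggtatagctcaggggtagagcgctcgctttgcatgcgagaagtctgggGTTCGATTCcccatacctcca
F46F2.t1: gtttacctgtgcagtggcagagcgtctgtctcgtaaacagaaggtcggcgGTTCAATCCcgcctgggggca
C24H11.t1: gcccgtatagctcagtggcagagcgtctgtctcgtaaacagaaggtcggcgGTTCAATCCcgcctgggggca
C08E8.t2: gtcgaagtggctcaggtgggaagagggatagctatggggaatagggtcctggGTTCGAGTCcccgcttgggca
C08E8.t3: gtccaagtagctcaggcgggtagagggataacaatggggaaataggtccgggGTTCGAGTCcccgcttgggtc
T13B5.t1: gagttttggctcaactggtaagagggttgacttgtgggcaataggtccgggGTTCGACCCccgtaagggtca
T13B5.t2: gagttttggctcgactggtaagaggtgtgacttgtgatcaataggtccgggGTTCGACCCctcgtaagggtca

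The fourth set holds related pseudogenes with unlike calls. On X, F19G12.t1 (chrX:1433063-1433143, minus strand), D1005.t1 (chrX:1474006-1474087, minus strand) and ZK380.t2 (chrX:1643850-1643922, plus strand) were bound and H11E01.t1 (chrX:1620275-1620355, plus strand) was not. F16F9.t1 (chrX:8459039-8459108, minus strand) was the bound member of the largest repeat family and F57G12.t2 (chrX:12167110-12167182, minus strand) one of its unbound copies.
F19G12.t1: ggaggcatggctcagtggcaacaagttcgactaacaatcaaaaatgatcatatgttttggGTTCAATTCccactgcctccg
H11E01.t1: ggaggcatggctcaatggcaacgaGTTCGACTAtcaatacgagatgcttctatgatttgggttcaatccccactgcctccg
D1005.t1: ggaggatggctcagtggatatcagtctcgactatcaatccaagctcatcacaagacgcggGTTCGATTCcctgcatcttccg
ZK380.t2: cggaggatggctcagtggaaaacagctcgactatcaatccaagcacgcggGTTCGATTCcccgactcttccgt
F16F9.t1: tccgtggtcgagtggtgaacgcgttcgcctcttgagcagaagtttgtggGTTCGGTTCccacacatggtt
F57G12.t2: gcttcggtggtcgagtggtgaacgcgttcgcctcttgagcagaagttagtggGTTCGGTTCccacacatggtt

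Signals of the bound pseudogenes spanned about 2 orders of magnitude and lay mostly below those of tRNA genes. The signal is the authors' value per peak, relative to a control alignment. In the IDR list the bound pseudogenes had a median signal of 313, from 55.9 to 6162, with quartiles of 103.6 and 1629.5. Bound tRNA genes had a median of 2911, from 57.5 to 14745, and bound snoRNA genes a median of 3622. The ranges overlapped, but only 4 bound pseudogenes were above the median tRNA gene. Of the 27, 14 lay in the upper 930 of the 1860 peaks. The lowest bound member, ZC123.t1 (55.9), stood close to the list's own floor of 54.3.

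**Figure D1:**
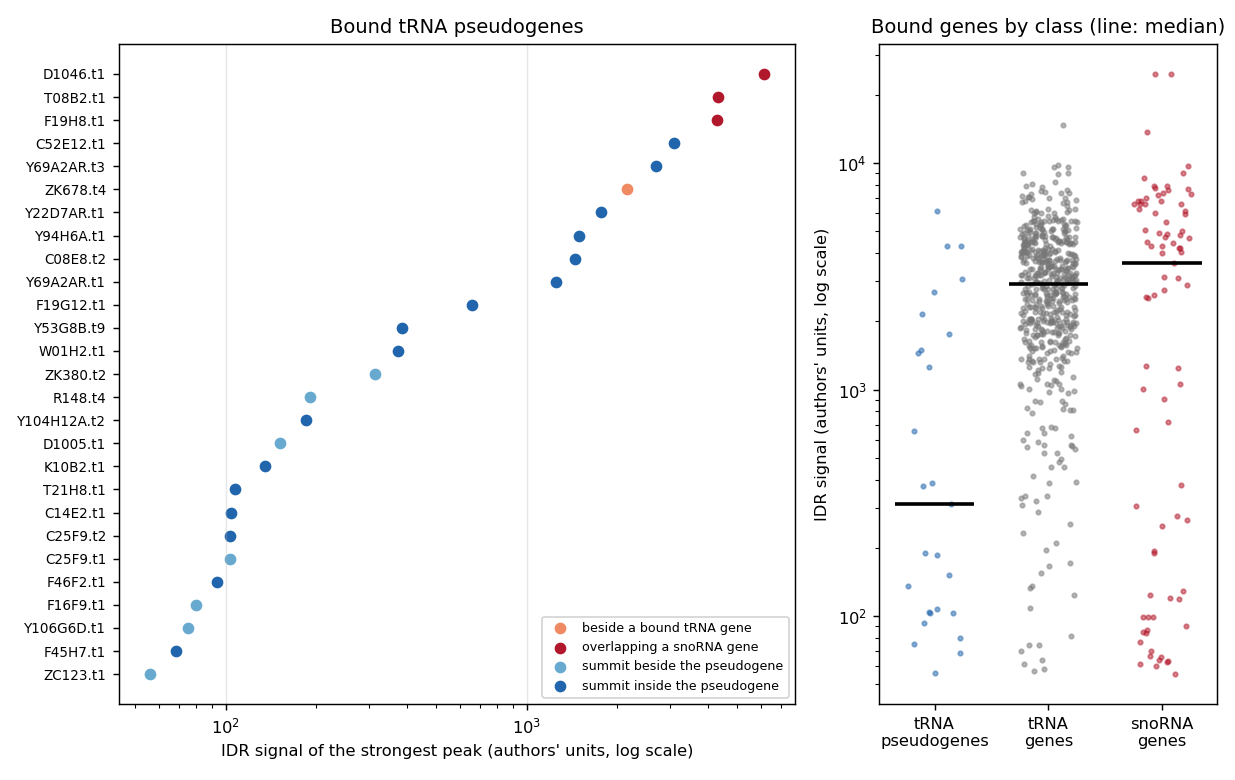
The left panel plots the IDR signal (authors' units, log scale) of the strongest peak at each of the 27 bound tRNA pseudogenes, coloured by setting, and the right panel sets them beside the 565 bound tRNA genes and 85 bound snoRNA genes, with lines at the medians. The 3 members that overlap snoRNA genes lead at 4288 to 6162, and the pseudogene median of 313 lies below the tRNA gene median of 2911.

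The 3 strongest members lay at the 5′ side of a snoRNA gene, on its strand and inside an intron of a host gene transcribed the same way. Small nucleolar RNAs guide the chemical modification of other RNAs. D1046.t1 overlapped D1046.6 by 9 bp, within cfim-2, which encodes a subunit of a pre-mRNA cleavage factor. Its signal was 6162 in the IDR list, 5153 in replicate 1 and 1150.2 in replicate 3, and the summit lay 19 bp past the pseudogene, inside D1046.6. T08B2.t1 (I, 6212821 to 6212892, minus strand) overlapped T08B2.13 by 4 bp within fars-1, which encodes a phenylalanyl-tRNA synthetase subunit. Its signal was 4312, with 3582 in replicate 1 and 784 in replicate 3. Both replicates placed these members near the top of their lists, at ranks 52 and 172 in replicate 1 and 66 and 211 in replicate 3. F19H8.t1 overlapped F19H8.6 by 8 bp within mltn-9, with a signal of 4288, 3503 in replicate 1 and 819 in replicate 3. At T08B2.t1 and F19H8.t1 the summit fell inside the pseudogene, 24 and 18 bp from the snoRNA gene. The summit at T08B2.t1 also lay inside the ncRNA gene T08B2.14, and that at D1046.t1 lay 34 bp from the ncRNA gene D1046.11. With a peak shared by these annotations, binding of the pseudogene, of the snoRNA gene and, where present, of the ncRNA gene cannot be told apart.

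The same arrangement also occurred without a call. Y59E1B.t1 overlapped the snoRNA gene Y59E1B.14 by 9 bp on the same strand, outside protein-coding genes. It was the unbound member with the highest pooled signal, 50.3, with 4.34 in replicate 1 and 7.52 in replicate 3. Its nearest IDR summit was 2824 bp away. Thus 3 of 4 pseudogenes joined to a snoRNA gene were bound.

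Next to tRNA genes the calls were divided, and where the tRNA gene carried a peak the summit lay closer to the tRNA gene. ZK678.t4, in an intron of srxa-9 on the opposite strand, lay 215 bp from the proline tRNA gene ZK678.t2. Its peak (2159.7 in the IDR list, 1600.3 in replicate 1, 543 in replicate 3) had its summit 176 bp from the pseudogene and 39 bp from ZK678.t2. T13B5.t1 lay 236 bp from T13B5.t2 and neither was bound, with the nearest IDR summit 124717 bp from the pseudogene. Y59A8B.t2 lay 213 bp from the glycine tRNA gene Y59A8B.t3, and neither was bound. Y51A2B.t2 lay 225 bp from the isoleucine tRNA gene Y51A2B.t1, which was bound with a signal of 69.98 and a summit inside it. That summit was 267 bp from the pseudogene, just past the 250 bp limit. Just inside the limit were R148.t4 at 234 bp and C25F9.t1 at 228 bp, and the next outside were Y80D3A.t1 at 451 bp and F56C11.t1 at 494 bp.

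The 16 pseudogenes with a summit inside them and no tRNA or snoRNA gene within 500 bp had a median signal of 379 (68.4 to 3085). C52E12.t1 led them, in an intron of unc-104, the kinesin motor that carries synaptic vesicle precursors. Its signal was 3085 in the IDR list, 2600.2 in replicate 1 and 488 in replicate 3, and its summit lay 18 bp from its 5′ end. It is 93.1% identical to B0491.t1 and 7 other alanine tRNA genes at the same distance of 5 edits, the closest match to any tRNA gene among the bound members. B0491.t1 itself had a signal of 2852, and the alanine tRNA gene C52E12.t3, 1295 bp from the pseudogene, had 2398 with its own summit inside. The signal at C52E12.t1 was above both in the IDR list, and in replicate 3, where they had 493 and 594, it was below both.

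Y69A2AR.t3 had a signal of 2699.7, with 2168 in replicate 1 and 536 in replicate 3, and its summit lay 10 bp from its 5′ end. It is 61.6% identical to its closest tRNA gene, and 24362 bp separate it from any tRNA or snoRNA gene. The summit also lay in the promoter window of gfrl-1 (500 bp upstream to 250 bp downstream of the 5′ end), the only case among the 23. Y69A2AR.t1, 5157 bp away in an intron of gfrl-1, carried a peak with its summit inside (624) and a stronger one 205 bp away (1253 in the IDR list, 992 in replicate 1, 257 in replicate 3).

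Y22D7AR.t1 had a signal of 1763, with 1403 in replicate 1 and 371 in replicate 3. Y94H6A.t1 had 1496, with 1165 in replicate 1 and 314 in replicate 3. Both stand outside protein-coding genes, with identities of 68.1 and 65.8% to a tRNA gene. Both were just under the lower quartile of bound tRNA genes, 1808. Around Y94H6A.t1, 36.8% of the 36-base words within 250 bp occurred once in the genome, so part of its surroundings is repeated, and how the authors placed reads from repeats is not given in the sources used here.

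C08E8.t2 had a signal of 1442, with 1182 in replicate 1 and 269 in replicate 3, and a summit 23 bp from its 5′ end. Its closest relative among tRNA genes, C08E8.t3, lies 1580 bp away, is 84.9% identical and was not bound, with 13.8 in replicate 1 and 13.6 in replicate 3. Here the copy annotated as a pseudogene was called and the copy annotated as a tRNA gene was not. Y51A2B.t2, 2365 bp from C08E8.t2 and also 84.9% identical to it, had a pooled signal of 11.1, with 4.51 in replicate 1 and 27.5 in replicate 3. In replicate 3 the value is that of Y51A2B.t1 as well. The 4 genes stand within the interval from 18371229 to 18374036 of chromosome V.

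Below these, F19G12.t1 (657 in the IDR list, 497 in replicate 1, 159 in replicate 3), Y53G8B.t9 (385, 257 and 113) and W01H2.t1 (373, 278 and 94.6) held intermediate signals. At W01H2.t1, 90.9% identical to isoleucine tRNA genes, the summit also lay in the ncRNA genes W01H2.4 and W01H2.5, and 61.8% of the words around it were unique. The rest of the 16 had signals from 68.4 at F45H7.t1 to 185 at Y104H12A.t2. Among them F46F2.t1, 87.5% identical to C24H11.t1, had 93.5 in the IDR list, 46.8 in replicate 1 and 27.1 in replicate 3. The ncRNA gene F46F2.11 overlaps its summit, and 59.1% of the 36-base words around it occurred once in the genome. C24H11.t1 had 5348, so a copy that differs by 9 edits carried a small fraction of its relative's signal.

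The 7 pseudogenes with the nearest summit outside them were weaker, with a median of 103 (55.9 to 313). ZK380.t2 led them at 313 in the IDR list, 235 in replicate 1 and 78.8 in replicate 3, with the summit 23 bp away. D1005.t1 (152), F16F9.t1 (79.9), Y106G6D.t1 (74.97) and ZC123.t1 (55.9) had summits 7 to 14 bp away. R148.t4 (190.04) and C25F9.t1 (103) had them 234 and 228 bp away. The peak of C25F9.t1 is the one whose summit lies inside C25F9.t2, so the 27 pseudogenes drew on 26 distinct strongest peaks.

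Summits at bound pseudogenes were spread more widely downstream of the annotated 5′ end than at tRNA genes. The nearest summit lay a median of 30 bp downstream of the pseudogene's 5′ end (quartiles 11.5 and 80), and 20.5 bp in the 16 with a summit inside. The upper quartile of 80 bp lies past the 3′ end of a pseudogene of the median length, 73 bp. For bound pseudogenes on X the median was 54 bp (29 to 247), and on autosomes 20.5 bp (−14 to 303). For bound tRNA genes the median was 12 bp (quartiles 9 and 26).

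**Figure D2:**
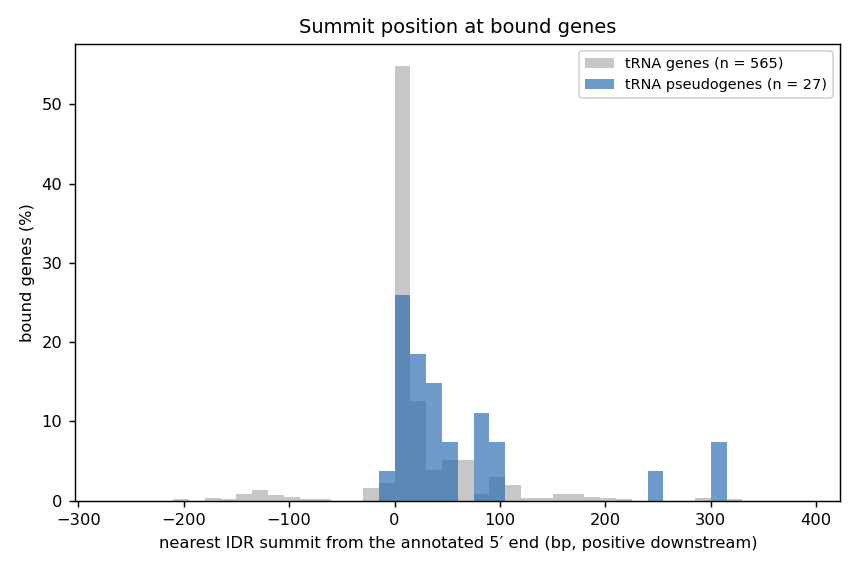
The histogram gives the percent of bound genes by the position of the nearest IDR summit from the annotated 5′ end (bp, positive downstream), for 27 tRNA pseudogenes and 565 tRNA genes. Both classes peak just downstream of the 5′ end, with medians of 30 and 12 bp, and pseudogenes spread further downstream.

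The replicates ordered the bound pseudogenes alike. All 27 had a peak in each replicate, from 42.5 to 5153 (median 235) in replicate 1 and from 8.001 to 1150.2 (median 78.8) in replicate 3. Across the 27 the rank correlation of these signals was 0.909, as a description. The points share peaks and the IDR selection, which asks for peaks that repeat. All 27 lay among the top 1860 peaks of replicate 1 and 24 among the top 1860 of replicate 3. The exceptions were F16F9.t1 (rank 2707), ZC123.t1 (rank 7082) and Y106G6D.t1 (rank 13367).

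**Figure D3:**
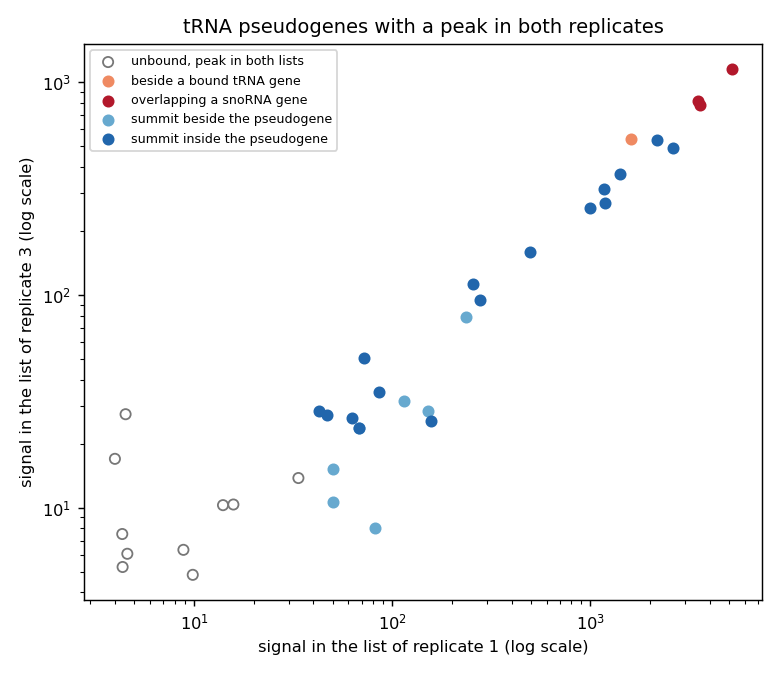
Each point is a tRNA pseudogene with a peak within 250 bp in both replicates, plotted by its signal in replicate 1 (x, log scale) and in replicate 3 (y, log scale), filled and coloured by setting where bound and open where unbound. The 27 bound members run along a diagonal up to D1046.t1 at 5153 and 1150.2, and the 10 unbound members sit at the lower left.

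Unbound pseudogenes had few and weak peaks, which follows in part from the call itself. Bound members have the same value in the IDR and pooled lists, the IDR list has a floor of 54.3, and it asks for peaks that repeat. Low signal and poor agreement between replicates in what is left are therefore no separate result. In the longer lists, which hold about 30000 peaks each and reach down to weak signal, 34 of the 182 had a peak in replicate 1 and 38 in replicate 3, but only 10 in both. Among those 10 the rank correlation was −0.01. No list had a peak within 250 bp of 111 of the 182. Over all 209 members, 61 had a peak of replicate 1 (29.2%, against 29.5% of all nuclear genes), 65 a peak of replicate 3 (31.1%, against 35.7%) and 67 a pooled peak (32.1%, against 30.7%). At this relaxed level the shares were near those of all nuclear genes, and the excess over them appeared in the IDR list. The genes compared were not matched for length, and a longer gene offers more room for a summit. These shares therefore do not measure what unrelated peaks would give at genes this short.

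Just outside the call stood Y59E1B.t1 (pooled signal 50.3), B0399.t2 (49.3, with 33.6 in replicate 1 and 13.8 in replicate 3), ZK228.t1 (44.2, with no peak in replicate 1 and 12.998 in replicate 3), F58F6.t2 (42.3, none and 17.3) and Y80D3A.t1 (39.96, 31.1 and none). The next were W02A11.t1 (37.5), F59A1.t2 (34.5), C47A10.t5 (34.3), C25F9.t3 (28.3) and H11E01.t1 (28.0). Ranked by 1 replicate alone, Y43F8C.t3 entered the top 1860 of replicate 1 with 57.6 and no peak in replicate 3. C25F9.t3 and Y51A2B.t2 entered that of replicate 3.

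The share bound differed by chromosome, with the lowest share on V and the highest on X, next to that on I. On V, which holds 91 of the 209 pseudogenes, 3 were bound (3.30%). Of those 91, 85 stand beyond 80% of the chromosome's length. On X 9 of 29 were bound (31.0%, interval 15.3 to 50.8%), and on chromosomes I to IV 3 of 10, 3 of 23, 4 of 33 and 5 of 23. The autosomes together had 18 of 180 bound (10%, interval 6.04 to 15.3%), and all chromosomes other than V 24 of 118 (20.3%). Shares of bound tRNA genes ranged less, from 57 of 66 on I to 55 of 57 on II, with 256 of 276 on X and 309 of 336 on autosomes. The bound pseudogenes of X had a median signal of 152 against 819 on autosomes. The autosomal values include the 3 members joined to a snoRNA gene (4288 to 6162), and those of X include ZK678.t4 (2159.7), beside a tRNA gene. Without these 4, signals ran from 79.9 to 657 on X and from 55.9 to 3085 on autosomes, so the ranges overlapped.

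**Figure D4:**
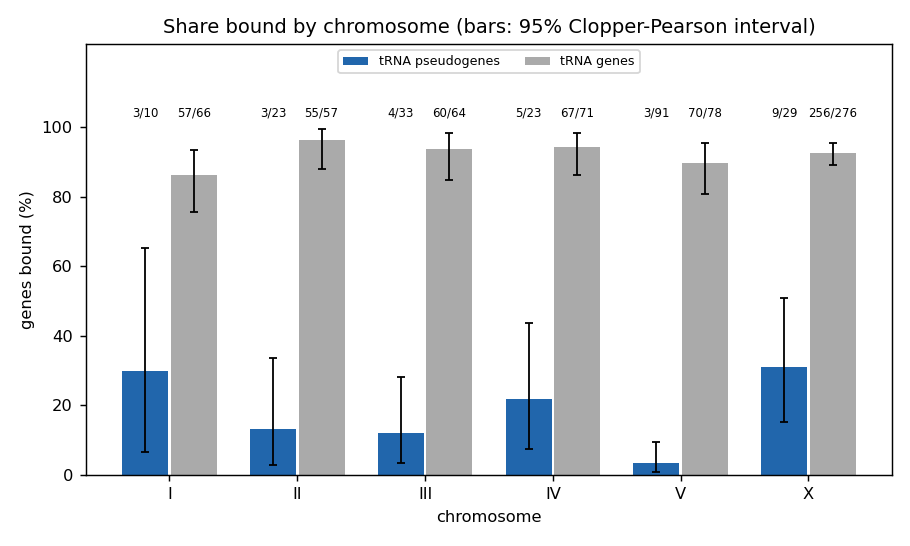
Bars give the percent of tRNA pseudogenes (blue) and tRNA genes (grey) bound on each chromosome, with 95% Clopper-Pearson intervals and bound over total above. Pseudogenes range from 3 of 91 on V to 9 of 29 on X, and tRNA genes from 57 of 66 on I to 55 of 57 on II.

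The share bound was lower in introns than outside protein-coding genes. No member overlapped an exon. In introns 10 of 113 were bound (8.85%) and outside protein-coding genes 17 of 96 (17.7%), against 263 of 284 and 292 of 318 tRNA genes. In introns of a host transcribed in the same direction 8 of 68 were bound (11.8%), and 2 of 45 in the opposite direction (4.44%). The 8 include the 3 members joined to a snoRNA gene, and the 2 include ZK678.t4, beside a tRNA gene. Without peaks near tRNA or snoRNA genes 6 of 113 were bound in introns (5.31%), and 17 of 96 outside. The intronic bound members had a median signal of 1706 against 185 outside. However, 3 of the 10 were those joined to a snoRNA gene (4288 to 6162), and ZK678.t4 (2159.7) had its summit closer to a tRNA gene. The other 6 had 3085, 1253, 190, 135, 79.9 and 55.9, on both sides of the median outside. With each chromosome divided into 3 equal parts, 22 of 196 members in the outer parts were bound, against 5 of 13 in the middle part. The 5 include D1046.t1 and T08B2.t1, which share a snoRNA gene's peak, and the outer parts include the 85 members at the end of V.

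Lengths were alike in the middle and differed at the edges. The median was 73 bp in both bound (70 to 95) and unbound (66 to 81) pseudogenes, and 17 of 27 and 125 of 182 were 72 or 73 bp long. Between 71 and 75 bp 20 of 192 were bound (10.4%), and at other lengths 7 of 17. Of the 7 members of at least 76 bp, 4 were bound, namely W01H2.t1 (77 bp), F19G12.t1 (81 bp), D1005.t1 (82 bp) and C14E2.t1 (95 bp), all on X. None of the 15 members of 75 bp was bound. These length classes were set after the values were seen.

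Bound pseudogenes stood closer to tRNA or snoRNA genes than unbound ones by the median, yet 23 of the 27 had none within 500 bp. The median distance to the nearest such gene was 19133 bp (0 to 246283) for bound and 43440.5 bp (0 to 471549) for unbound members, and 3244.5 bp among tRNA genes. For the nearest tRNA gene alone the medians were 49037 and 95439.5 bp, and for the nearest snoRNA gene 79925 and 112120.0 bp. By class of distance, 3 of 4 overlapping members were bound, 1 of 4 at up to 250 bp, 6 of 16 between 500 and 5000 bp, 12 of 103 between 5000 and 50000 bp and 5 of 82 beyond. Among the 201 with none within 500 bp, 23 were bound (11.4%).

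The medians lay further apart, and in the other direction, for the distance to the nearest other tRNA pseudogene. Its median was 119632 bp for bound and 1009 bp for unbound members. Within 1000 bp of another pseudogene 2 of 91 were bound (2.20%), the pair C25F9.t1 and C25F9.t2 that shares a peak. The share was 5 of 65 between 1000 and 10000 bp, 6 of 19 between 10000 and 100000 bp, and 14 of 34 beyond (41.2%). Clustering varied by chromosome, with another pseudogene within 1000 bp for 48 of 91 members on V, 19 of 33 on III and 8 of 29 on X. Without members that have another pseudogene within 1000 bp, 9 of 21 on X and 16 of 97 on autosomes were bound. The share on X was again the higher, but the autosomal share includes V, where 3 of all 91 members were bound. Whether clustering or chromosome goes with the calls was not tested. Of the 612 tRNA genes, 605 have no tRNA pseudogene within 1000 bp.

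**Figure D5:**
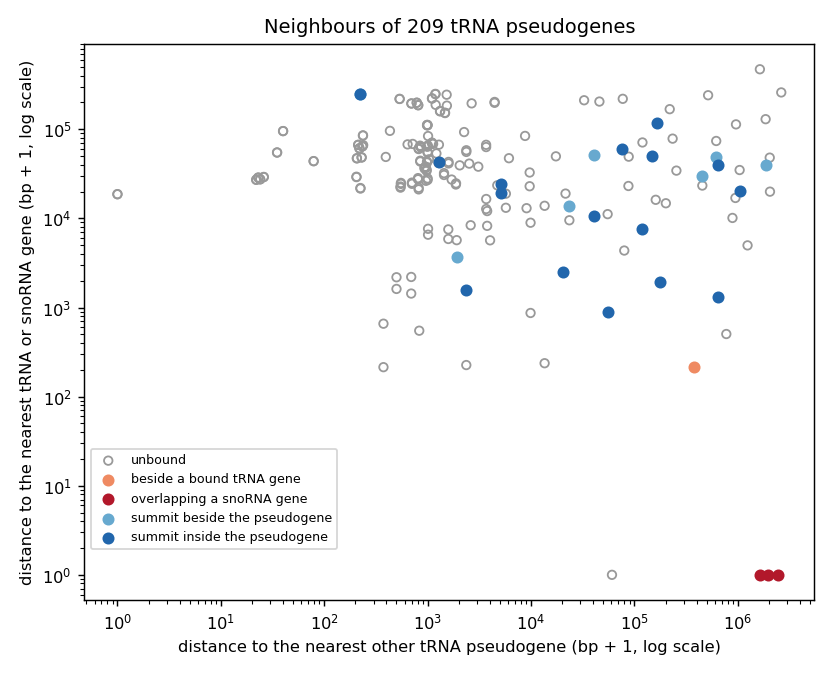
Each of the 209 tRNA pseudogenes is placed by its distance to the nearest other tRNA pseudogene (x) and to the nearest tRNA or snoRNA gene (y), both as bp + 1 on log scales, coloured by setting where bound and open where unbound. Unbound members crowd near 1000 bp on the x axis, and most bound members lie to the right of them.

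Likeness to tRNA genes did not order the calls in 1 direction. Identity is 100 minus the edit distance as a percent of the longer sequence. Its median against the closest tRNA gene was 68.5% for bound (57.9 to 93.1) and 69.4% for unbound members (63.0 to 91.9). Under 65% identity 8 of 18 were bound, from 65 to 70% 7 of 104, from 70 to 80% 6 of 73, and at 80% or more 6 of 14. Bound members were thus found at both ends of the range. Unbound members of highest identity were Y51A2B.t2 and W03H1.t1 (91.9%), T13B5.t1 and T25D1.t1 (91.8%) and C36C9.t1 and C36C9.t3 (both 90.3%). All of these but Y51A2B.t2 had no peak in any list. The share of unique 36-base words was 100% around T13B5.t1 and 86.2% around W03H1.t1, but 33.7% around T25D1.t1 and 0% around C36C9.t1 and C36C9.t3, and the part of read placement there was not tested.

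Copies in repeat families were mostly unbound. Of 74 members at least 90% identical to another pseudogene 2 were bound (2.70%), and of the other 135 members 25 (18.5%). The largest family has 37 members, of which F16F9.t1 was the bound one (79.9 in the IDR list, 49.95 in replicate 1, 15.3 in replicate 3). Its 36 unbound relatives are 90.4 to 94.5% identical to it, all hold a core match with 1 mismatch, all are closest to an arginine tRNA gene, and 1 had a pooled peak, F57G12.t2, with 15.3 there, 9.86 in replicate 1 and none in replicate 3. They stand on all 6 chromosomes, 17 of them in introns. Around these copies a median of 8.06% of the 36-base words occurred once in the genome (1.30 to 39.96%), against 25.8% around F16F9.t1, and the part of read placement in these calls was not tested. Of the 41 members with at most 40% unique words, this family's 37 among them, 2 were bound (4.88%), Y94H6A.t1 and F16F9.t1. The class of at most 40% was set after the values were seen. At a cutoff of 70% unique words the shares were close, with 5 of 44 bound under it (11.4%) and 22 of 165 bound at or above it (13.3%).

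Among the related pseudogenes on X, F19G12.t1 and the unbound H11E01.t1 are 85.2% identical, at 12 edits over 81 bp. H11E01.t1 had a pooled signal of 28.0, 14.0 in replicate 1 and 10.3 in replicate 3, against 657, 497 and 159 at F19G12.t1. D1005.t1 and ZK380.t2, 78.0% identical, had 152 and 313. The 4 stand between positions 1433063 and 1643922 of X, and none has a T run of at least 4 within 40 bp after its 3′ end. In H11E01.t1 the best match to the core, with 1 mismatch, begins at base 25, while in the other 3 it lies near the 3′ end. H11E01.t1 also holds GTTCAATCC near its 3′ end, the form with 2 mismatches that is marked in F46F2.t1 and C24H11.t1. The place of the best match is thus no sign that the core is missing there.

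The B-box core was common in bound and in unbound pseudogenes, and which had the higher share depended on the mismatches allowed. On the gene's strand and inside the gene, a match to GTTCGANTC with at most 1 mismatch was found in 21 of 27 bound (77.8%), 170 of 182 unbound (93.4%) and 542 of 612 tRNA genes (88.6%). Such a match was found in 1.95% of 1373595 genome windows of 73 bp on 1 strand and in 3.81% on both. Without mismatch the core was in 12 bound (44.4%), 51 unbound (28.0%) and 286 tRNA genes (46.7%), and in 0.0960% of windows on 1 strand. Of members with no mismatch 12 of 63 were bound, with 1 mismatch 9 of 128, and with 2 mismatches 6 of 18. The best match ended 9 to 15 bases before the 3′ end in 26 bound, 179 unbound and 564 tRNA genes. A match without mismatch to the A-box letters TRGYNNARNNG (R is A or G, Y is C or T, N is any base) was sought anywhere in the gene. It was found in 22 bound, 174 unbound and 592 tRNA genes. A share of genome windows with such a match is not given here.

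A T run of at least 4 within 40 bp after the 3′ end was less frequent in bound members. It was found in 20 of 27 bound (74.1%), 173 of 182 unbound (95.1%) and 605 of 612 tRNA genes (98.9%). The bound members without one were T08B2.t1, F19H8.t1, F19G12.t1, ZK380.t2, D1005.t1, T21H8.t1 and ZC123.t1, of which the first pair runs on into a snoRNA gene. Their median signal was 313, against 282 in the 20 with a run. How often such a run occurs in genome windows is not given here. A match or its absence is a description of these letters and says nothing of a factor's binding.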

How the data were processed

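Peaks were deposited by the authors on ce11. Per the file headers, calls were made separately for either sample and once on both together, and the IDR list came from comparing those calls. Their signal values are the authors' own, relative to a control alignment that was not analysed here, and each list has its own scale, so signals were compared within a list. Which aligner and which caller were run is not given in the sources used here. No reads are counted in the deposited lists, so depth is unknown, and only the number of peaks (29914 in replicate 1, 30000 in replicate 3 and the pooled list, 1860 in the IDR list) describes them. Copies on ce10 were not used.

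From these files, summits were matched to RefSeq WBcel235 genes with Python 3.11.15, pandas 2.3.3 and NumPy 2.4.6. A gene takes the strongest peak with a summit within 250 bp. Identities were computed with edlib 1.3.9.post1 over whole or spliced tRNA genes, and families joined members at 90% or more. Intervals are Clopper-Pearson (SciPy 1.17.1). The steps were tested on simulated peaks. All bound members could be named, with the 10 unbound of highest pooled signal and the 5 of highest tRNA identity (C36C9.t3 tied with the last). Other pseudogenes named, such as those just outside 250 bp and F57G12.t2, were chosen after their values were seen. The members and lists were chosen with earlier results of these data known. Alternatives changed the distance, the list, the overlap rule, the replicate, shared peaks and the motif.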

Additional observations from a re-analysis of the deposited data

How the results depend on the processing

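Of 104 values under alternatives, 82 stayed within their limits and 22 moved. Each is a single count, share or median, so none has a direction that could turn. Values within their limits could still differ. For summits inside the gene 17.2% were bound on X, against 31.0% by the main rule, and 7.22% on autosomes, against 10%. In the upper 930 IDR peaks 14 pseudogenes were bound, 10 of them with no tRNA or snoRNA gene within 500 bp, with 13.8% bound on X, 5.56% on autosomes and 8.33% outside protein-coding genes. In the whole pooled list the counts were 67 and 61, with 30.6% on autosomes, 28.3% inside and 36.5% outside protein-coding genes. The share on X in that list was 41.4%, within its limits. Median identity was 68.27% for summits inside the gene and for 100 bp, 68.75% for 500 bp, 66.21% in the upper 930, 69.01% in the pooled list and 69.01% without peaks near tRNA or snoRNA genes. The median distance to such a gene was 14926 bp for summits inside, 12308.5 bp in the upper 930, 35179 bp in the pooled list, 24362 bp without peaks near such genes, and 12308.5 to 16515.5 bp with 1 replicate left out. These moves go with fewer, more or different members being called. Without mismatch, a stricter motif by construction, the B-box share was 44.4%.

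The number bound was 18 with the summit inside, 24 at 100 bp, 30 at 500 bp, 25 by interval overlap, 23 without peaks near tRNA or snoRNA genes and 26 counted per peak. It was 26 without replicate 1, of which 24 were shared, and 28 without replicate 3, of which 27 were shared. No paired analysis was possible because there is 1 group. Depth is unknown, so a pseudogene without a peak was not shown to lack polymerase. Repeated copies limit what reads can show.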
